A study of Mus musculus with 4 samples.

Results

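Osteoprotegerin, the product of Tnfrsf11b, is a secreted decoy receptor, and it was followed here with 8 further genes of bone remodelling and mineral deposition in mouse C2C12 myoblasts held in G0. The 9 genes were Tnfrsf11b, Tnfsf11, Alpl, Dmp1, Phex, Runx2, Sp7, Spp1 and Ibsp. Probe sets were taken where the platform annotation gave 1 of these symbols, which found 11 probe sets of 7 genes, out of 22626 probe sets and 12393 named genes in all. Runx2 and Spp1 were not analysed here. The genes were chosen with the comparison of Wnt3A with control already known, so their values are a description and carry no test.

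C2C12 is an established mouse myoblast line. All cells were arrested in G0, in which they rest without dividing but can return to the cell cycle, by keeping them in semi-solid methyl cellulose for 48 hours. In the Wnt3A group they received purified Wnt3A, a ligand of the canonical Wnt pathway that stabilises β-catenin, at 50 ng/ml, and in the control group they did not. Each group had 2 arrays that the labels call biological replicates of this 1 line, without saying whether the cultures were separate; errors therefore measure only the spread between these arrays, which may be technical. The treatment protocol in the labels mentions Wnt3A for every sample, and the groups were taken from the sample titles.

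Osteoprotegerin binds RANKL, the product of Tnfsf11, and keeps it from its receptor RANK on osteoclast precursors; in bone, osteoblasts and osteocytes make both proteins, and osteoprotegerin is a known target of canonical Wnt signalling there. The other genes act in bone formation. Runx2 and Sp7 (osterix) are transcription factors of the osteoblast lineage, Alpl encodes the tissue-nonspecific alkaline phosphatase that breaks down pyrophosphate, an inhibitor of mineral deposition, and Dmp1, Ibsp and Spp1 encode acidic matrix proteins of the SIBLING family. Phex is a cell surface endopeptidase of osteoblasts and osteocytes whose loss raises the phosphate-wasting hormone FGF23. C2C12 cells are myoblasts, and they are known to take on osteoblast traits when given bone morphogenetic proteins.

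In the RefSeq annotation of GRCm38.p6, Dmp1, Ibsp and Spp1 lay on chromosome 5 in 1 run of protein-coding genes, in which the only other gene was Mepe, a further SIBLING gene. Tnfrsf11b and Sp7 lay on chromosome 15, Tnfsf11 on 14, Alpl on 4, Runx2 on 17 and Phex on X. Promoter sequences from the RefSeq table of that build, each from 250 bases before to 50 bases after an annotated start, matched 7 of the 9 genes with 10 promoters. They were searched on both strands for the TCF/LEF words CTTTGAA or CTTTGAT or CTTTGTA or CTTTGTT, the RUNX word TGTGGT and the GC box GGGCGG. Of all 32851 promoters in the table, 16.9% held a TCF/LEF word, 16.8% the RUNX word and 35.7% the GC box. The 4 promoters below are shown because they belong to the measured genes with a promoter entry whose group means lay at least 2-fold apart on a probe set; where a gene had 2 promoters, the one with a match is given. Capitals mark the matches.
Alpl promoter, chr4:137796335-137796634, - strand: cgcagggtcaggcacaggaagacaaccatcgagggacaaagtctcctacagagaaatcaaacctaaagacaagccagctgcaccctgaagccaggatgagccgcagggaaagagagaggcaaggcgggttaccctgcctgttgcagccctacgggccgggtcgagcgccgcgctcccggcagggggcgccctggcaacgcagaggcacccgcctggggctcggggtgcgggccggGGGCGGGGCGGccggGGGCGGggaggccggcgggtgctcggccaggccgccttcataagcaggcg
Tnfsf11 promoter, chr14:78307994-78308293, - strand: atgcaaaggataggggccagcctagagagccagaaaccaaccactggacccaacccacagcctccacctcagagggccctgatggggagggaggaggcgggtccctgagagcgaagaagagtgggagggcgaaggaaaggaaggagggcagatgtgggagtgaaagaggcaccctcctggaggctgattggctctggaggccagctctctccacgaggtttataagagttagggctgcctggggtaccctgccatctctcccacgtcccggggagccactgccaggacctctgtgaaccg
Dmp1 promoter, chr5:104202367-104202666, + strand: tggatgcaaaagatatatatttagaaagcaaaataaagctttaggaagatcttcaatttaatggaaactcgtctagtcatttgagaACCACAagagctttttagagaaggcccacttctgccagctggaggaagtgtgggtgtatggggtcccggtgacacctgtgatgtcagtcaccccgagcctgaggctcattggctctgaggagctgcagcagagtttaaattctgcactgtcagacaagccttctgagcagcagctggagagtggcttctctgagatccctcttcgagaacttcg
Phex promoter, chrX:157415237-157415536, - strand: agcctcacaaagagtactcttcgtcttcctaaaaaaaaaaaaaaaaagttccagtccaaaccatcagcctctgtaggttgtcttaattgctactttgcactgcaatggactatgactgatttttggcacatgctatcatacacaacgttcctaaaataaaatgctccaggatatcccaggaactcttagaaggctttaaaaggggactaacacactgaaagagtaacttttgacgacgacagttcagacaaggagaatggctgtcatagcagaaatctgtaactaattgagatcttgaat
The Alpl sequence held the GC box 3 times, at positions -15, -10 and 1 from the annotated start, and the first 2 of these share a base. The Dmp1 sequence held the RUNX word once on the opposite strand, where it reads ACCACA. None of these 4 windows held a TCF/LEF word; among the 10 promoters, 1 did, the second promoter of Spp1. A match of letters is a description and not a binding site.

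The arrays had median signals between 4.15 and 4.22 on a log2 scale, and their correlations over the 16969 tested probe sets ran from 0.947 to 0.983. Probe sets in the dimmest 25% by mean over the 4 arrays, under a signal of 2.01, were not tested. No detection calls were used, and the number of arrays limits the precision. All 7 myoblast markers (Myod1, Myf5, Des, Cdh15, Itga7, Myog and Ncam1) lay above 2.01 on every array, but some stood apart between the groups. The myogenic factor gene Myod1 read 6.32 and 3.62 with Wnt3A, against 6.84 and 7.11 in control (difference -2.0, adjusted p = 0.977 in limma). Myog read 7.42 and 6.66 with Wnt3A against 8.0 and 9.27 in control (-1.59, adjusted p = 0.919), and Myf5 read 7.77 and 7.65 against 6.57 and 5.99 (1.43, adjusted p = 0.629). The groups did not overlap in these 3 or in Ncam1 (background 33%). Ncam1 differed by 0.56, with -0.06 to 0.27 on its other tested probe sets. The groups overlapped in Des, Cdh15 and Itga7 (-0.61 to -0.12). The mean signal of all 7 was 7.26 and 6.41 with Wnt3A, against 7.02 and 7.38 in control. Of 9 leukocyte and osteoclast markers 4 were tested. The osteoclast genes Acp5, Calcr and Oscar and the leukocyte genes Ptprc and Lyz2 were under the limit. The mean signal of the 4 was 2.95 and 3.27 with Wnt3A, against 2.68 and 2.86 in control. Among them Csf1r read 3.53 and 5.19 with Wnt3A against 3.26 and 3.4 in control. Its difference was 1.03, with 0.14 to 1.29 on its other tested probe sets. Cd68 read 3.03 and 3.13 with Wnt3A against 2.82 and 2.78 in control, and the groups overlapped in Adgre1 and Ctsk. The 2 tested adipocyte markers, Fabp4 and Pparg, averaged 2.56 and 2.48 with Wnt3A and 4.13 and 3.57 in control. Fabp4 differed by -1.32, and by -0.03 on its other tested probe set. The 2 tested fibroblast markers averaged 10.40 and 9.51 with Wnt3A, against 10.78 and 10.80 in control. Of 4 chondrocyte markers 2 were tested, with means of 2.11 and 2.41 with Wnt3A and 2.48 and 2.29 in control, and of 5 endothelial and epithelial markers 1 was tested (Kdr, 2.20 and 2.15 against 2.64 and 2.23). The part of these markers in the values below was not tested. Axin2, a feedback inhibitor and standard readout of the canonical pathway, read 5.13 and 6.14 on the Wnt3A arrays, against 3.25 and 3.21 on the control arrays, a difference of 2.41 (SE 0.39, adjusted p = 0.535 in limma). Its other probe set was under the limit. As each array measured a whole culture, fewer cells with a transcript and less of it per cell cannot be told apart.

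In limma, fitted with no term beside the group, 0 of the 16969 tested probe sets had an adjusted p under 0.05 (0% called), and 839 had an unadjusted p under 0.05 (4.94%). A difference is Wnt3A minus control on the log2 scale throughout. Of the 11 probe sets described here 7 were tested, and 4 were under the limit for dim probe sets: both of Ibsp and the dimmer ones of Tnfsf11 and Phex. The tested one nearest the limit was Tnfsf11 1419083_at with a mean signal of 2.16, and the brightest below it was Tnfsf11 1451944_a_at with 1.83. Among the 7, the Wnt3A arrays stood above the controls without overlap in 3 (background 15.1%) and under them in 3 (background 17.9%; 33% for either direction). All 6 of these differed at least 2-fold, which 1.34% of tested probe sets did upwards and 1.7% downwards with groups that did not overlap. Tnfrsf11b 1449033_at, Alpl, Dmp1 and Tnfsf11 1419083_at had both arrays of 1 group under the limit. Their means passed it through the other group alone, which favours groups that do not overlap. For this reason, and as the genes were chosen on this comparison, nothing is read from these counts.

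**Figure D1:**
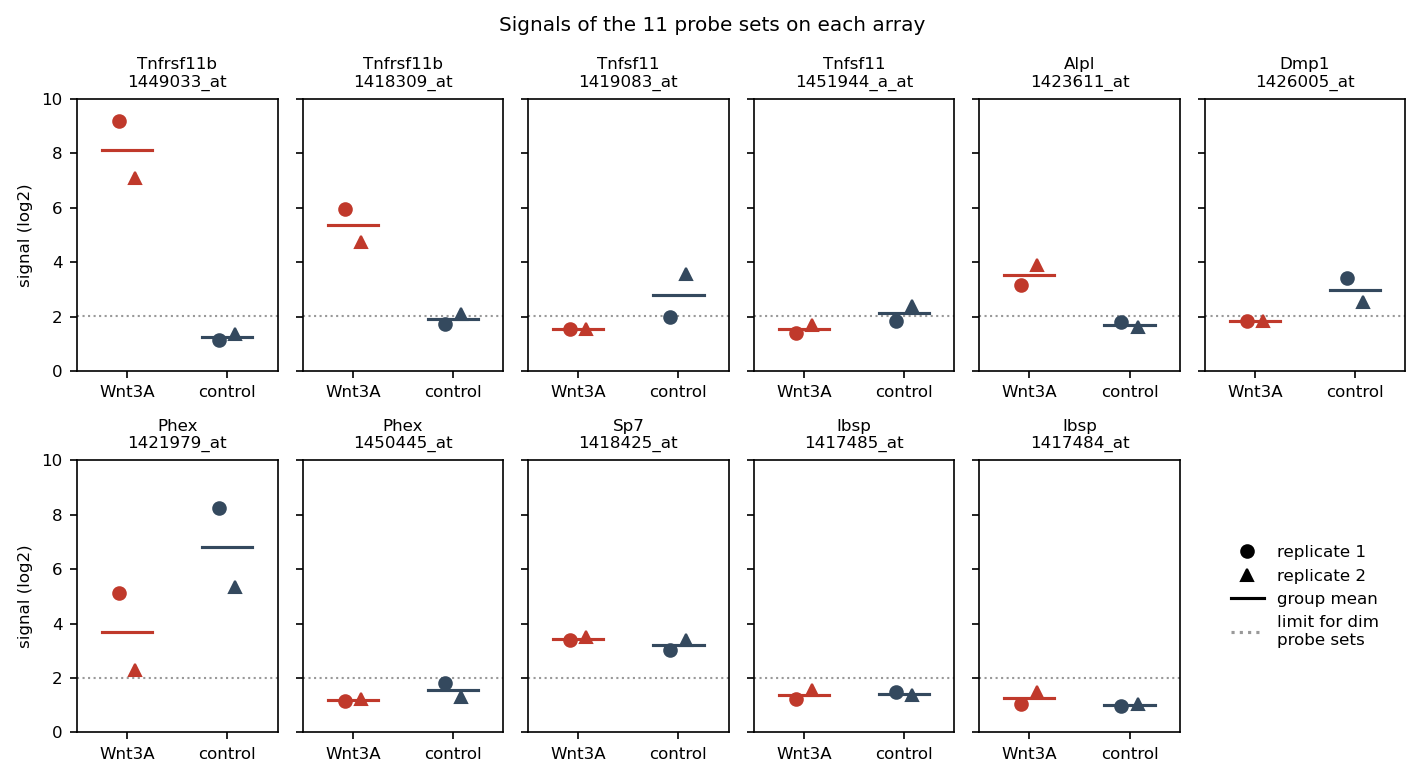
Signals (log2) of the 11 probe sets on each array, Wnt3A left and control right in each panel; circles are replicate 1, triangles replicate 2, bars group means, and the dotted line is the limit for dim probe sets at 2.01. Tnfrsf11b and Alpl stand higher on both Wnt3A arrays, Dmp1, Tnfsf11 and Phex stand lower, and Sp7 and Ibsp overlap.

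Tnfrsf11b, the decoy receptor gene, was measured by 2 probe sets. Probe set 1449033_at read 9.18 and 7.09 on the Wnt3A arrays, against 1.15 and 1.36 on the control arrays. Both Wnt3A arrays were far above both controls, and both controls were under the limit for dim probe sets. The mean was 8.13 ± 1.48 with Wnt3A and 1.26 ± 0.15 in control (SD, n = 2 each), a difference of 6.88 (SE 0.72, 95% confidence interval 5.01 to 8.74), or 118-fold. It was the largest positive difference of the 16969 tested probe sets. The second, 1418309_at, read 5.96 and 4.74 with Wnt3A, against 1.72 and 2.09 in control. Its difference was 3.44 (SE 0.45, 95% confidence interval 2.26 to 4.63), rank 5 from the top, and a linear fold of 10.9. The probe sets thus had the same direction and the same order of the Wnt3A arrays, replicate 1 above replicate 2 by 2.10 and 1.22, but differed in size. For 1449033_at both control signals were under the limit, and for 1418309_at control replicate 1 was, so the size of each difference depends on how such dim values are read. With signals under 2.01 raised to that value on every tested probe set, an alternative chosen after seeing the data, it was 6.12 (69.7-fold, rank 1 from the top) for 1449033_at and 3.30 (9.85-fold, rank 4) for 1418309_at. With each array left out in turn it ran from 5.83 to 7.93 and from 2.83 to 4.06.

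Tnfsf11 encodes RANKL, the cytokine that osteoprotegerin binds. Probe set 1419083_at read 1.53 and 1.55 on the Wnt3A arrays, against 1.99 and 3.58 on the control arrays. Both Wnt3A arrays were lower than both controls and under the limit, and control replicate 1 was under it as well, so only control replicate 2 stood clear. The difference was -1.25 (SE 0.53, 95% confidence interval -2.63 to 0.13); without control replicate 2 it was -0.46, and without control replicate 1 it was -2.04. Probe set 1451944_a_at, under the limit by its mean, read 1.40 and 1.69 with Wnt3A and 1.85 and 2.38 in control, again lower on both Wnt3A arrays, with a difference of -0.57. Tnfsf11 was thus at or near the dim end in both groups, apart from 1 control array.

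The relation of the decoy to its ligand can be followed within each array, where a shift of scale between arrays cancels. The signal of Tnfrsf11b 1449033_at minus that of Tnfsf11 1419083_at was 7.66 and 5.54 on the Wnt3A arrays, against -0.85 and -2.22 on the control arrays. The groups did not overlap, and the shift between their means was 8.13 on the log2 scale as deposited. Of the 8 signals behind it 5 were under 2.01, and with these raised to that value the shift was 6.91. Over the 4 pairings of the Tnfrsf11b and Tnfsf11 probe sets it ran from 4.01 to 8.13 as deposited, and from 3.49 to 6.91 with dim signals raised. The level of such a ratio has no meaning, since the probe sets differ in brightness, and its shift shows an unequal change of the 2 signals; most of it came from Tnfrsf11b, whose own difference was 6.88.

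Alpl, the alkaline phosphatase gene, had 1 probe set, which read 3.15 and 3.88 with Wnt3A, against 1.80 and 1.61 in control. Both Wnt3A arrays were above both controls, and both controls were under the limit for dim probe sets. The means were 3.52 ± 0.52 with Wnt3A and 1.71 ± 0.14 in control (SD, n = 2 each), and the difference was 1.81 (SE 0.29, 95% confidence interval 1.06 to 2.56), 3.51-fold. It ranked 56 from the top of the tested probe sets. Raising signals under the limit to 2.01 on all of them left 1.51 and rank 105, and leaving out each array in turn gave 1.44 to 2.18. Unlike Tnfrsf11b, Alpl was higher on Wnt3A replicate 2 than on replicate 1, by 0.73.

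Phex, the phosphate-regulating endopeptidase gene, had the widest spread between replicates among the 11. Probe set 1421979_at read 5.12 and 2.29 on the Wnt3A arrays, against 8.26 and 5.36 on the control arrays. Both Wnt3A arrays were lower than both controls, but Wnt3A replicate 1 and control replicate 2 were close, and within each group replicate 1 was above replicate 2 by 2.83 with Wnt3A and 2.89 in control. The means were 3.70 ± 2.0 with Wnt3A and 6.81 ± 2.05 in control (SD, n = 2 each), a difference of -3.11 (SE 1.33, 95% confidence interval -6.57 to 0.35), the 27th lowest of the tested probe sets. Leaving out an array moved it to -1.66 (control replicate 1), -1.69 (Wnt3A replicate 2), -4.52 (Wnt3A replicate 1) or -4.56 (control replicate 2). All 4 signals were above the limit. The other probe set, 1450445_at, read 1.15 and 1.24 with Wnt3A and 1.81 and 1.31 in control, under the limit on every array, with a difference of -0.37.

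Dmp1 encodes dentin matrix protein 1, a SIBLING protein of osteocytes and odontoblasts. It read 1.82 on both Wnt3A arrays, against 3.40 and 2.55 on the control arrays. Both Wnt3A arrays were lower than both controls and under the limit. The difference was -1.15 (SE 0.31, 95% confidence interval -1.96 to -0.35), 2.22-fold, and -0.73 without control replicate 1. With signals under the limit raised to it, the difference was -0.97 for Dmp1 and -0.78 for Tnfsf11 1419083_at, so that neither reached 2-fold.

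Ibsp encodes bone sialoprotein, another SIBLING protein, which binds hydroxyapatite. Its probe sets were under the limit on every array: 1417485_at read 1.21 and 1.54 with Wnt3A and 1.47 and 1.37 in control, and 1417484_at read 1.03 and 1.5 with Wnt3A and 0.97 and 1.04 in control. The groups overlapped on both, with differences of -0.04 and 0.26, and no difference could be measured at such signals. Mepe, the gene between Ibsp and Spp1 in the gene order, was also under the limit by its mean and read 2.09 and 1.84 with Wnt3A against 2.19 and 1.88 in control. Sp7, the osterix gene, read 3.38 and 3.49 with Wnt3A, against 3.04 and 3.39 in control. The groups overlapped, since control replicate 2 exceeded Wnt3A replicate 1, and the difference was 0.22 (SE 0.21, 95% confidence interval -0.34 to 0.78). That interval leaves room for a difference of up to 0.78 upwards.

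**Figure D2:**
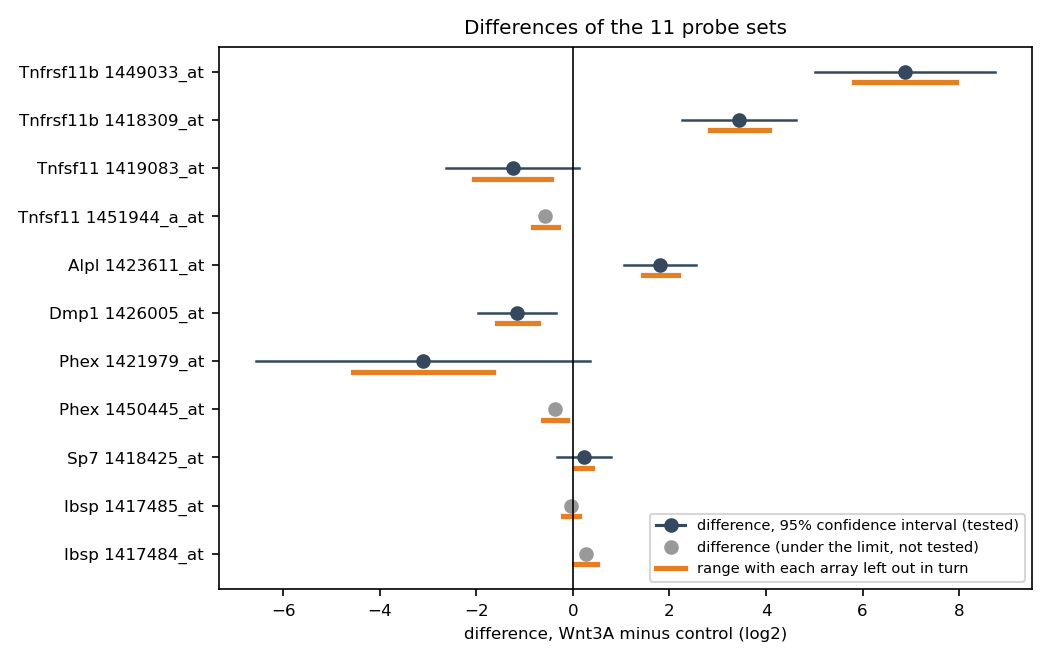
Differences of the 11 probe sets, Wnt3A minus control (log2), as points; dark lines are 95% confidence intervals of the limma fit for the 7 tested probe sets, grey points lie under the limit, and orange bars give the range with each array left out in turn. Tnfrsf11b (6.88 and 3.44) and Alpl (1.81) have the largest positive differences, and the interval of Phex 1421979_at, from -6.57 to 0.35, is the widest. The genes were chosen with this comparison known, so the intervals are a description and not a test against 0.

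The genes whose 4 values ran most like those of 3 of these genes were looked up. The search covered the named tested probe sets of all genes outside the 9. It used the root mean square distance after the mean of the 4 arrays was subtracted. For Tnfrsf11b 1449033_at they were Col8a1, a short-chain collagen gene (distance 1.13, with 8.82 and 8.82 with Wnt3A against 2.75 and 4.12 in control), Grb14, an insulin receptor adaptor gene (1.56), and Nkd2, a Wnt feedback inhibitor gene (1.92). These distances are wide, as few probe sets differed by as much. For Alpl they were the glutathione transferase gene Gsta2 (0.148), the Wnt ligand gene Wnt11 (0.152) and the malic enzyme gene Me1 (0.181). Gsta2 read 4.61 and 5.19 with Wnt3A and 2.91 and 2.73 in control, and Wnt11 read 3.49 and 4.21 against 2.22 and 2.31. For Dmp1 they were the transporter gene Slc43a3 (0.130), the lectin gene Clec10a (0.143) and the adaptor gene Pag1 (0.144), and Pag1 read 5.83 and 5.87 with Wnt3A against 7.68 and 6.89 in control. With 4 arrays of 2 groups, a short distance chiefly says that the differences and the spreads had similar sizes.

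**Figure D3:**
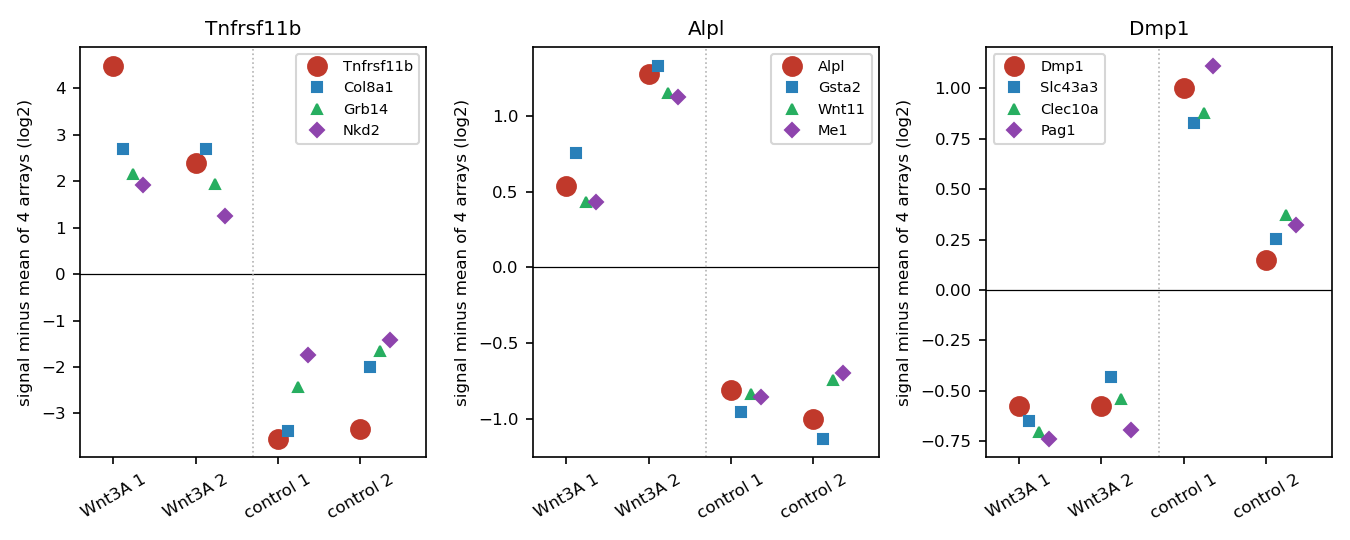
Signals minus the mean of the 4 arrays (log2) for Tnfrsf11b 1449033_at, Alpl and Dmp1 (large circles) and the 3 named genes nearest to each, by array, with the Wnt3A arrays left of the dotted line and the control arrays right of it. For Alpl and Dmp1 the nearest genes lie within 0.181 and 0.144, and for Tnfrsf11b the nearest one, Col8a1, is 1.13 away.

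Related genes were read from 6 lists with 160 genes. Of these, 141 had a probe set that was given their name alone, and 110 were tested, each by its brightest probe set. By limma, 0 of all 16969 tested probe sets had an adjusted p under 0.05. The 0 of the 110 here and the 0 in each list below follow from that. The lowest adjusted p of the 110 was 0.629, and 16 had an unadjusted p under 0.05 (background 4.94%). The Wnt3A arrays stood above the controls without overlap in 22 (background 15.1%) and under them in 17 (background 17.9%). At least 2-fold apart without overlap were 12, or 10.9%, where the background was 3.03%. The lists were chosen with earlier results of these data known. The background also counts every tested probe set, not only the brightest of each gene. Nothing is therefore read from these counts. The median difference of the 110 was 0.01, and that of all tested probe sets was 0.00.

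In the list of RANK signalling and other partners of osteoprotegerin, 0 of 15 tested genes passed in either direction. The median was -0.17 (0.03 without Wnt3A replicate 1), and the groups did not overlap in 3 of the 15 (background 33%). Tnfrsf11a, the gene of the receptor RANK, read 2.31 and 2.70 with Wnt3A and 2.68 and 2.66 in control. Tnfsf10 (TRAIL), the other ligand of osteoprotegerin, was under the limit. Csf1, the macrophage growth factor that osteoclast precursors need beside RANKL, read 6.65 and 6.23 with Wnt3A, against 7.09 and 7.57 in control, a difference of -0.89 (SE 0.29, adjusted p = 0.919 in limma), with -1.02 to -0.07 on its other tested probe sets. Sdc1, a heparan sulfate proteoglycan gene, differed by -0.72 (SE 0.16) and Rela, an NF-κB subunit gene, by 0.45 (SE 0.22).

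Among other genes of the TNF receptor superfamily and its ligands, to which Tnfrsf11b and Tnfsf11 belong, 0 of 23 tested genes passed. The median was 0.07 (-0.06 without Wnt3A replicate 2). The groups stood apart without overlap in 9 of the 23 (background 33%), 8 of them higher with Wnt3A (background 15.1%). Tnfsf9, the ligand of the costimulatory receptor 4-1BB, read 6.70 and 7.85 with Wnt3A, against 5.44 and 5.64 in control, a difference of 1.73 (SE 0.43, adjusted p = 0.789 in limma). Tnfrsf23, a decoy receptor gene of TRAIL in the mouse, differed by 1.27 (SE 0.37); it has a close relative in Tnfrsf22, and hybridization between the copies was not tested. Cd40 differed by 0.67 (SE 0.20), and by 0.05 on its other tested probe set.

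Of the transcription factors of the osteoblast lineage 0 of 22 passed, with a median of 0.14. Both Wnt3A arrays were above the controls in 4 (background 15.1%) and below them in 2 (background 17.9%). Hey1, a Notch effector, differed by -1.0 (SE 0.30), Sox9, a factor of cartilage, by 0.75 (SE 0.38; 0.11 on its other probe set) and Cebpb by -0.40 (SE 0.21). Dlx5 and Msx2, factors that act with Runx2 in osteoblasts, were under the limit, and Cbfb, the partner subunit of the Runx factors, read 9.90 and 9.82 with Wnt3A and 9.54 and 9.68 in control.

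In bone matrix and collagen assembly 0 of 21 passed, with a median of -0.18 (0.15 without Wnt3A replicate 2). Without overlap, 4 were above (background 15.1%) and 4 below (background 17.9%). The proteoglycan gene Fmod (fibromodulin) read 6.91 and 7.41 with Wnt3A, against 4.05 and 5.69 in control, a difference of 2.29 (SE 0.59, adjusted p = 0.789 in limma), with 1.40 to 1.73 on its other tested probe sets. Tnc, the gene of tenascin C, differed by 1.69 (SE 0.55). Ogn (osteoglycin) read 8.47 and 5.27 with Wnt3A, against 10.79 and 10.20 in control, with a difference of -3.62 (SE 1.07) and -3.72 on its other probe set. Col1a2, a chain of type I collagen, the main fibre of bone, differed by -0.42, and Sparc (osteonectin) by -0.23. Col1a1, the other chain of type I collagen, differed by 0.54, and by -0.08 on its other tested probe set.

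Of the SIBLING relatives and osteocyte genes 0 of 12 passed. Their median was -0.42 (-0.02 when dim probe sets were kept, 0.08 without Wnt3A replicate 2). Without overlap, 3 were above (background 15.1%) and 3 below (background 17.9%). The osteocyte genes Sost and Fgf23 and the SIBLING genes Dspp and Mepe were under the limit. Fbln7, a matrix glycoprotein gene that was placed in this list as a partner of dentin sialophosphoprotein, read 5.67 and 4.52 with Wnt3A, against 8.01 and 7.02 in control, a difference of -2.42 (SE 0.54, adjusted p = 0.712 in limma). Cd44, which encodes a receptor of hyaluronan and osteopontin, differed by 0.60 (SE 0.17; 0.88 on its other probe set), and Fam20c, the kinase that phosphorylates SIBLING proteins, by -0.71 (SE 0.35).

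Among genes of phosphate, pyrophosphate and mineral handling, 0 of 17 passed. Their median of -0.07 turned to 0.06 with Wnt3A replicate 1 left out, and to 0.08 with control replicate 2 left out. Of the 17, 2 stood above the controls without overlap (background 15.1%) and 5 below them (background 17.9%). Enpp3, an ectonucleotidase gene of the family that makes pyrophosphate, read 4.80 and 3.30 with Wnt3A, against 7.16 and 6.76 in control. The difference was -2.91 (SE 0.55, adjusted p = 0.629 in limma), and -3.59 to -2.73 on its other tested probe sets. Vdr, the vitamin D receptor gene, read 4.39 and 3.86 with Wnt3A, against 5.49 and 6.0 in control, a difference of -1.62 (SE 0.32, adjusted p = 0.646 in limma) that was -1.61 on its other probe set. Nt5e, which makes adenosine from AMP on the cell surface, differed by 1.13 (SE 0.29). Ank, the pyrophosphate exporter gene, differed by -0.47, and the phosphate transporter gene Slc20a1 by 0.60.

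**Figure D4:**
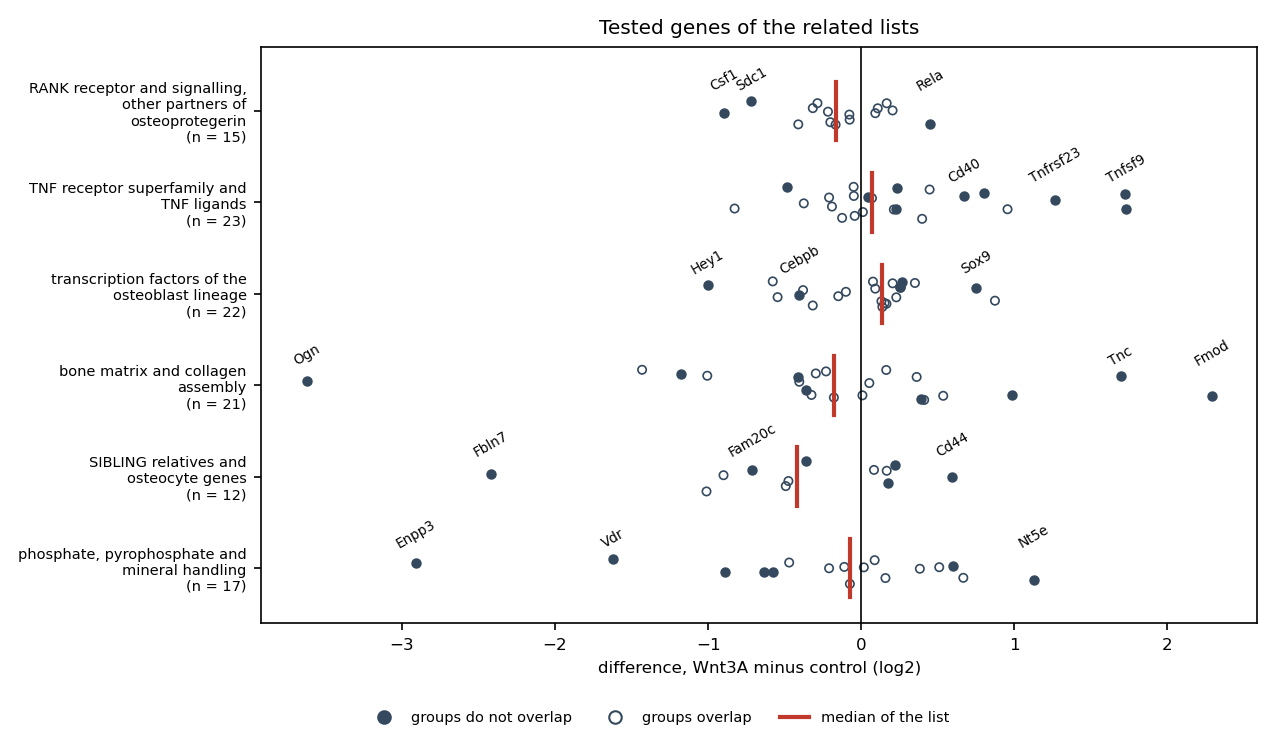
Differences, Wnt3A minus control (log2), of the 110 tested genes in 6 related lists; each circle is a gene, filled where the groups do not overlap, the red line is the list's median, and the 3 genes of lowest unadjusted p per list are named. The medians lie between -0.42 and 0.14, and Ogn (-3.62), Enpp3 (-2.91), Fbln7 (-2.42) and Fmod (2.29) stand farthest from 0.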

How the data were processed

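Expression was measured on 4 Affymetrix arrays, 2 of Wnt3A-treated and 2 of control cells, grouped by their titles. The authors deposited a table with a value for each probe set on each array, read here as a log2 signal from its range (0.50 to 13.23); the base is not stated, and another base would rescale every difference. GCOS and PLIER are named per the submitters' processing notes, and neither normalization nor genome build is given in the sources used here. No value was normalized again, as column medians lay close together.

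Of 22690 probe sets 64 are array controls. The platform annotation gave 1 symbol for 20380 probe sets and several for 691, left unnamed; 1555 are unnamed here, and 20351 were matched to RefSeq symbols by Entrez ID. Differences were fitted over 16969 probe sets in R 4.3.3 with limma 3.58.1 (lmFit, eBayes with an intensity trend, two-sided, Benjamini-Hochberg, threshold 0.05), with 4.77 degrees of freedom, and the procedure was tested on simulated data. Standard errors and confidence intervals come from this fit.

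The members and lists were chosen with earlier results of these data known. Named beside the members were the 3 genes of lowest p per list, the 3 nearest patterns of Tnfrsf11b, Alpl and Dmp1, neighbouring genes and Axin2. A few further list members were added after their values were seen (Tnfrsf11a, Tnfsf10, Dlx5, Msx2, Cbfb, Col1a1, Col1a2, Sparc, Sost, Fgf23, Dspp, Ank and Slc20a1). Alternatives were the replicate number as a block, 3 other scalings, other filters on dim probe sets, no trend, an average over the probe sets of a gene, and each array left out.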

Additional observations from a re-analysis of the deposited data

How the results depend on the processing

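The deposited table gives no detection calls, so the order of signals under 2.01 may not be reliable, which was not tested. With 2 arrays per group, the spread itself is uncertain. The number of called probe sets was 0 in limma fitted with no term beside the group, with 839 at an unadjusted p under 0.05, and stayed 0 under quantile normalization, median centring, no filter, the dimmer 50% left out, no intensity trend and each array left out in turn (0 to 0, with 424 to 1973 at an unadjusted p under 0.05). The replicate number as a block gave 83 called probe sets (32 higher, 51 lower), and scaling to the hybridization controls gave 68 (40 higher, 28 lower), where the median difference of all tested probe sets was 0.32. Same-numbered arrays deviated together (correlation 0.518 over the tested probe sets), but the labels do not say that a number marks a shared culture or day. With the replicate block the SE of Phex 1421979_at was 0.23 in place of 1.33, as its difference was -3.14 between the arrays numbered 1 and -3.07 between those numbered 2. Of the list genes, 0 were called without a block, 2 with the replicate block (Fbln7 and Enpp3) and 2 with hybridization control scaling (Fmod and Enpp3); the cause was not tested.

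Of the 11 probe sets of the genes described, 6 lay at least 2-fold apart, and 5 to 6 with each array left out in turn. It was 4 with hybridization control scaling, and also 4 with signals under the limit raised to it, an alternative chosen after seeing the data. In both cases Dmp1 and Tnfsf11 1419083_at fell short of 2-fold. Of 132 recomputed differences of these probe sets 3 changed sign, all of Ibsp 1417485_at, under hybridization control scaling (0.28), without Wnt3A replicate 1 (0.13) and without control replicate 1 (0.01). Of 72 recomputed list medians 9 changed sign: 6 with an array left out, given beside each list, and those of RANK signalling (0.15), bone matrix (0.14) and phosphate handling (0.25) under hybridization control scaling, which is less than the shift of all probe sets.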
